A study of Mus musculus with 10 samples.

Results

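Heat shock proteins and chaperonins were examined in the hippocampus of mice that differed in exploratory activity. The members were taken by gene symbol. They were all probe sets whose platform annotation gave exactly 1 symbol that began with Hsp followed by a digit or by a, b, d, e or h, with Dnaja, Dnajb or Dnajc, or with Cct2 to Cct8, and Hspg symbols were left out. This gave 81 genes with 200 probe sets, of 18193 genes with 1 symbol and 45037 probe sets on the array without controls. By family they were 9 Cct genes, 2 HSP90 genes, 13 HSP70 genes (Hspa), 1 HSP110 gene (Hsph1), the mitochondrial pair Hspd1 and Hspe1, 7 small heat shock proteins (Hspb), 4 Dnaja, 13 Dnajb and 27 Dnajc genes. Another 3 genes, Hspb11, Hspbap1 and Hspbp1, share the letters of the symbols but are not chaperones of these families.

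Chaperones bind proteins that are not yet folded or have lost their fold. HSP70 proteins hold exposed hydrophobic stretches in a cycle driven by ATP, and J-domain proteins, the Dnaj families, bring them clients and speed ATP hydrolysis. HSP90 takes over clients such as kinases and steroid receptors at a late stage of folding, the ring-shaped chaperonin TRiC, built from the Cct subunits, folds actin and tubulin in a closed chamber, and HSP60 with its lid HSP10 does so in mitochondria. Small heat shock proteins hold unfolded clients without ATP. Heat shock factor 1 induces many of these genes when unfolded proteins accumulate in the cytosol, the unfolded protein response induces those of the endoplasmic reticulum, and in neurons the constitutive HSP70 and its J-domain partners also act on synaptic vesicle proteins and strip clathrin from vesicles.

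The samples were whole hippocampus of adult female Balb c/J mice, an inbred strain, that came from Jackson and were born on the same day, so that both groups shared genotype, sex and age. Repeated open-field tests, in which movement through an arena is scored, ranked the mice by a composite score, and the most active formed the High Exploration group and the least active the Low Exploration group, with 5 mice in each and no other treatment. Each mouse gave 1 Affymetrix array of the whole mouse transcriptome. Replicate numbers only name the arrays, and the number of arrays limits the precision. Values are log2 of the MAS 5.0 signal, and differences are High minus Low Exploration, so that 1 on this scale is a doubling.

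The tissue and the arrays were checked first. Of 10 genes that mark hippocampal neurons, 8 lay above the filter on low signal, among them Camk2a at 13.28, while Fibcd1 and C1ql2 lay below it. Of 7 choroid plexus markers 5 also lay above it, with Ttr at 14.37, and so did 4 of 7 markers of other brain regions. The filter keeps 50% of all probe sets, so passing it does not by itself identify the tissue. No signal in the table was 0. Several array measures differed between the groups. The hybridisation controls, bacterial transcripts added in equal amounts before hybridisation, read 13.25 to 14.03 in High and 13.94 to 14.71 in Low Exploration (exact 2-sided permutation p = 0.0159). Other bacterial transcripts, the poly-A controls that go into the RNA before labelling, read 11.84 to 13.06 and 13.58 to 14.67 (exact permutation p = 0.00794, the smallest this test can give with 5 arrays a group). The ratio of 3′ to 5′ signal of Gapdh was 4.72 ± 0.48 and 3.72 ± 0.23 on the log2 scale (SD, n = 5 each; exact permutation p = 0.0159), and that of Actb was 5.30 ± 0.58 and 4.97 ± 0.75 (exact permutation p = 0.484). The part of these differences in the chaperone values was not tested.

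No chaperone probe set passed limma's threshold, an adjusted p of 0.05. Of the 200 probe sets, 113 had a mean log2 signal above the median of all probe sets and were tested, and they belonged to 60 genes. Among them 0 passed, where 3 of all 22518 tested probe sets did (0.0133%). At an unadjusted limma p under 0.05, 30 members were higher and 9 lower in High Exploration (26.5% and 7.96%), beside 9.67% higher and 20.5% lower of all tested probe sets. In 7 members (6.19%) all 5 High Exploration arrays read above all 5 Low Exploration arrays, beside 2.14% of all tested probe sets. In 0 members did all read below, beside 6.69%.

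The typical tested member was higher in High Exploration while the typical tested probe set of the array was lower. The median difference of the 113 members was 0.31, and 68 of them were above 0, whereas the median of all tested probe sets was −0.31, with 8589 of 22518 above 0. With the hybridisation controls as a covariate the median of the members was −0.04 and that of all tested probe sets −0.12. Signal level moved with this. Of the members, 48 (24%) lay in the highest of 10 classes of mean signal, where 65.6% of all probe sets read higher in High Exploration, with a median of 0.43, and 77.1% of the members did so, with a median of 0.92. The 87 members below the filter had a median of −0.61, and 22 of them were above 0. Over all 200 members the median was −0.11 and that of all 45037 probe sets −0.47. Without the filter the same 7 probe sets did not overlap in the higher direction (1.17% of all probe sets did so) and 1, Cct3 (1439679_at), did not overlap in the lower direction (4.84%).

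**Figure D1:**
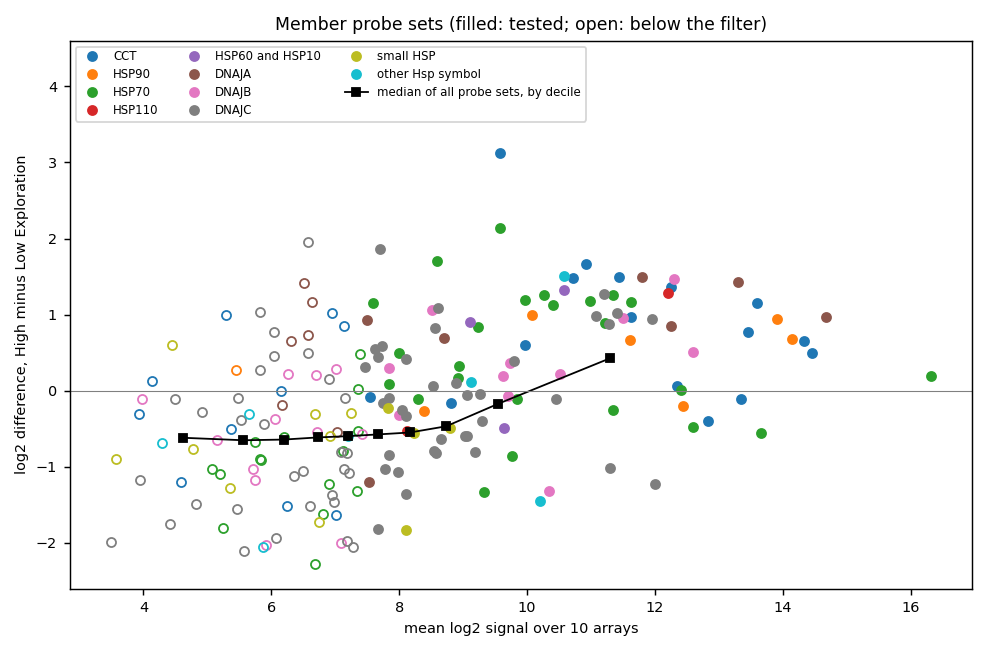
Log2 difference (High minus Low Exploration, y axis) of each of the 200 member probe sets against its mean log2 signal over 10 arrays (x axis), coloured by family, with black squares for the median of all 45037 probe sets in each class of signal. Filled points, the 113 tested members, lie mostly above 0 at high signal, where the black line also crosses 0, and the open points below the filter lie mostly under 0.

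The subunits of TRiC read higher in High Exploration. Of the 16 tested Cct probe sets 3 had groups without overlap in that direction (18.8%), beside 2.14% of all tested probe sets. They were 3 of the 7 such members. The alpha subunit, Tcp1, is not a member by the symbol rule and is given below. All 6 member subunits whose highest probe set was tested were above 0, with a median of 0.88, and 0 passed the threshold. Over all 16 tested Cct probe sets 12 were above 0 (75%), with a median of 0.71, beside 38.1% of all tested probe sets. In the highest class of signal 65.6% of all probe sets were above 0, with a median of 0.43. No scaling or model that was tried turned the sign of either Cct median. Cct2, which encodes the beta subunit, read 13.04, 13.54, 12.71, 12.58 and 12.78 in High Exploration and 11.98, 12.11, 11.22, 12.12 and 10.40 in Low Exploration at its brightest probe set (1433534_a_at). Every High Exploration array lay above every Low Exploration array, and the lowest value was that of Low replicate 5. The difference was 1.36 ± 0.40 (SE), a ratio of 2.57, with a limma adjusted p of 0.0717. A second Cct2 probe set (1433535_x_at) had a limma adjusted p of 0.0761, and its groups overlapped, with Low replicates 1 and 2 above High replicate 4.

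Cct3, the gamma subunit, held the lowest adjusted p of all members and also probe sets that showed no such difference. Its probe set 1459987_s_at read 11.59, 10.15, 12.95, 10.12 and 10.90 in High Exploration and 10.08, 7.88, 8.21, 7.53 and 6.37 in Low Exploration. The groups did not overlap, and the means were 11.14 ± 1.18 and 8.01 ± 1.35 (SD, n = 5), a difference of 3.13 ± 0.68 with a limma adjusted p of 0.0581. The probe set of Cct3 with the highest signal (1448178_a_at) read 13.89, 14.67, 14.93, 13.81 and 13.58 in High Exploration and 13.79, 12.74, 12.76, 12.96 and 12.87 in Low Exploration. Here Low replicate 1 lay among the High Exploration arrays and the other 4 Low arrays below all of them. Its difference was 1.15 ± 0.37 (limma adjusted p = 0.0833), while the other tested probe sets of the gene differed by 0.77 and −0.08.

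Cct4, the delta subunit, had 6 tested probe sets with differences from −0.40 to 1.67. The highest (1438560_x_at) read 14.58, 15.02, 14.69, 14.53 and 14.73 in High Exploration and 14.17, 14.42, 13.91, 14.64 and 13.97 in Low Exploration. These groups overlapped at High replicates 1 and 4 and Low replicate 4, and the difference was 0.49 ± 0.30 (limma adjusted p = 0.277). A neighbour in level, 1433447_x_at, did not overlap, at 14.45 to 14.99 in High and 13.56 to 14.35 in Low Exploration. Cct5, the epsilon subunit, read 11.31, 11.85, 12.63, 10.45 and 11.12 in High Exploration and 11.51, 10.19, 10.50, 10.48 and 7.24 in Low Exploration, and Low replicate 5 stood far below the rest of its group. Its difference was 1.49 ± 0.69 (limma adjusted p = 0.164). Cct6a and Cct7, the zeta and eta subunits, differed by 0.06 ± 0.44 and 0.60 ± 0.50. Cct8, the theta subunit, lay below the filter at 7.57 ± 1.44 and 6.71 ± 1.35 (SD, n = 5), and so did Cct6b and Cct8l1.

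**Figure D2:**
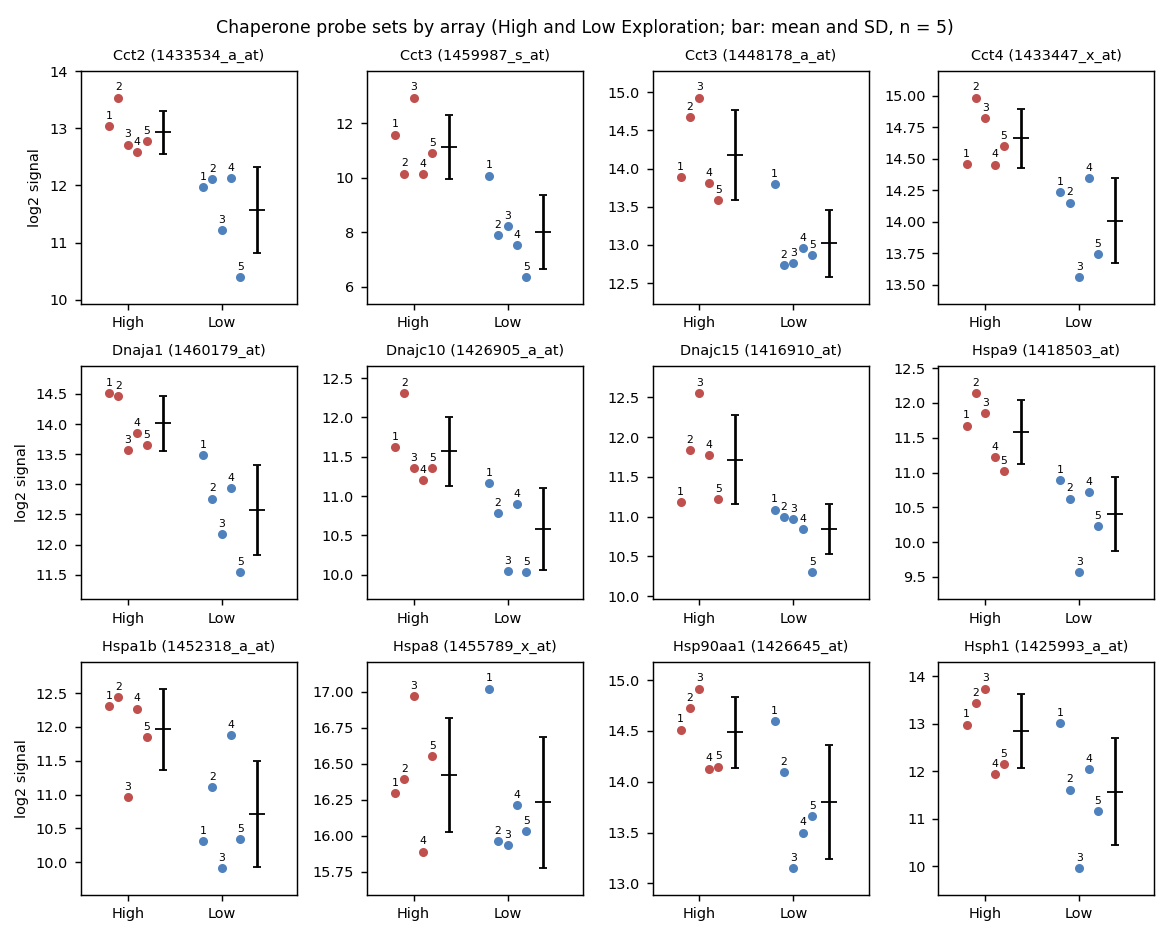
Log2 signal (y axis) of 12 chaperone probe sets on each array (numbered points; High Exploration red, Low Exploration blue), with black bars for mean and SD of 5 arrays. Groups do not overlap in Cct2, Cct3 (1459987_s_at), Cct4 (1433447_x_at), Dnaja1 (1460179_at), Dnajc10, Dnajc15 and Hspa9 (1418503_at). These are the 7 tested members (6.19%) of this kind, beside 2.14% of all tested probe sets. The brightest probe sets of Cct3, Cct4, Dnaja1 and Hspa9 overlap. In Hspa8, Hsp90aa1, Hsph1 and Cct3 (1448178_a_at) Low replicate 1 lies among or above the High Exploration arrays.

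Genes that work with TRiC were set beside its subunits. Prefoldin, which hands nascent actin and tubulin to the chaperonin, and the phosducin-like modulators of TRiC gave 10 tested genes with Tcp1, the alpha subunit. Of these 7 were above 0 and 3 below, 0 passed, and the median was 0.56, which fell below 0 only with the hybridisation controls as a covariate. Vbp1, a prefoldin subunit, had means of 13.01 ± 0.94 and 11.39 ± 0.63 (SD, n = 5), a difference of 1.62 (limma adjusted p = 0.0728). Txndc9, a modulator of TRiC, differed by 1.33 (limma adjusted p = 0.108). Tcp1 itself differed by 0.17, with overlapping groups.

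The HSP70 genes, those of the endoplasmic reticulum and of mitochondria included, divided by gene and by probe set. Of 24 tested HSP70 probe sets 17 were above 0 and 7 below, with a median of 0.41, which turned to −0.07 with the hybridisation controls as a covariate and kept its sign otherwise. Hspa8, the constitutive HSP70 of the cytosol and of synapses, had the strongest signal of the members at its probe set 1455789_x_at, which read 16.30, 16.39, 16.97, 15.89 and 16.55 in High Exploration and 17.02, 15.96, 15.93, 16.21 and 16.03 in Low Exploration. Low replicate 1 was the highest of all 10 arrays, and the difference was 0.19 ± 0.34 (limma adjusted p = 0.725). The next probe sets of Hspa8 differed by 1.16 and 0.89, and in both Low replicate 1 was again the highest of its group.

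Hspa1a and Hspa1b encode the stress-inducible HSP70 and are nearly identical in their coding sequence, so that signal cannot be assigned to 1 of them with certainty. Hspa1b (1452318_a_at) read 12.31, 12.44, 10.97, 12.27 and 11.85 in High Exploration and 10.32, 11.11, 9.92, 11.88 and 10.34 in Low Exploration. All High Exploration arrays but replicate 3 lay above all Low Exploration arrays but replicate 4, and the difference was 1.25 ± 0.44 (limma adjusted p = 0.0948). The other probe sets of Hspa1b, both below the filter, differed by −0.53 and −1.80, and the mean over all 3 gave −0.36. Hspa1a (1452388_at) read 8.24, 8.85, 8.59, 7.87 and 7.33 in High Exploration and 8.44, 7.12, 7.09, 5.82 and 6.62 in Low Exploration. It differed by 1.16 ± 0.48 (limma adjusted p = 0.130), with Low replicate 1 among the High Exploration arrays.

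Hsph1, Hspa4 and Hspa4l, which exchange the nucleotide of HSP70, belong to the same superfamily. Hsph1, the HSP110 of the cytosol, read 12.98, 13.43, 13.74, 11.93 and 12.15 in High Exploration and 13.02, 11.61, 9.97, 12.05 and 11.17 in Low Exploration. The groups overlapped at Low replicates 1 and 4, and the difference was 1.28 ± 0.55 (limma adjusted p = 0.141), whereas its second probe set differed by −0.53. Hspa4 (1435194_at) read 12.74, 11.32, 11.16, 13.28 and 13.32 in High Exploration and 10.66, 13.53, 13.81, 13.08 and 13.15 in Low Exploration. High replicates 2 and 3 and Low replicate 1 read 10.66 to 11.32 and the other 7 arrays 12.74 to 13.81, so that the low and the high level both occurred in each group. Its difference was −0.48 ± 0.63, and that of Hspa4l, its close relative, was 0.01 ± 0.41 at the highest probe set and 1.19 ± 0.41 at the next (limma adjusted p = 0.0941).

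Cofactors of HSP70 outside the family were split. Of 9 tested genes 5 were above 0 and 4 below, 0 passed, and the median was 0.31, which went to −0.05 without High replicate 3. St13, which stabilises the client-bound form of HSP70, read 14.33, 13.57, 12.62, 13.50 and 12.40 in High Exploration and 12.36, 12.12, 11.02, 12.28 and 11.00 in Low Exploration. Its groups did not overlap, and it differed by 1.53 (limma adjusted p = 0.0731). Grpel2, a nucleotide exchange factor of mitochondria, differed by 0.78 (limma adjusted p = 0.148).

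The 2 HSP90 members, Hsp90aa1 and Hsp90b1, read higher in High Exploration at 4 of 6 tested probe sets. Their median was 0.67, and −0.32 with the hybridisation controls as a covariate. Hsp90ab1, another cytosolic HSP90, had no probe set with 1 symbol in the annotation and so has no values here. Hsp90aa1, the inducible cytosolic HSP90, read 14.51, 14.73, 14.92, 14.13 and 14.15 in High Exploration and 14.60, 14.10, 13.15, 13.50 and 13.67 in Low Exploration. High replicates 1 to 3 and Low replicate 1 were its 4 highest arrays, and the difference was 0.68 ± 0.36 (limma adjusted p = 0.208). Of its other tested probe sets 1438902_a_at differed by 0.95, 1437497_a_at by −0.20 and 1433251_at by −0.27. Genes of HSP90 cochaperones lay the other way in 7 of 9 tested, and 0 passed. Their median was −0.46, beside −0.31 for all tested probe sets. In 2 of the 9, Ahsa1 and Fkbp4, the groups did not overlap in the lower direction, beside 6.69% of all tested probe sets. Under median centring and under scaling to the hybridisation controls the median of the cochaperones was above 0. Ahsa1, which stimulates the ATPase of HSP90, read 8.79, 8.10, 9.11, 7.90 and 9.13 in High Exploration and 9.97, 9.93, 9.45, 9.48 and 10.32 in Low Exploration. All High Exploration arrays lay below all Low Exploration arrays, and it differed by −1.22 (limma adjusted p = 0.0726). Chordc1, an HSP90-binding protein, differed by 1.11 (limma adjusted p = 0.118).

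Genes that heat shock factor 1 induces were taken as a list of 10, and all of them were tested by their highest probe set. Of these 8 were above 0 and 2, Hspb1 and Hspd1, below; 0 passed, 4 were higher at an unadjusted limma p under 0.05, beside 9.67% of all tested probe sets, and the median was 0.82. Across scalings and models it ranged from 0.10 to 1.43. Of the 4 genes listed for the factors themselves 3 had values, and the gene of heat shock factor 1 was not among these. Of the 3, 2 were tested, 1 factor and 1 binding protein, and Hsf4 lay below the filter. Hsf2, another heat shock factor, had means of 7.92 ± 1.28 and 9.73 ± 1.07 (SD, n = 5) and differed by −1.82 (limma adjusted p = 0.0961), and Hsbp1, which binds heat shock factors, differed by 0.49.

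The heat shock element, the site at which heat shock factors bind, was looked for in promoter windows of RefSeq (GRCm38.p6), which run from 250 bases before to 50 bases after a transcription start. The pattern was GAANNTTCNNGAA on both strands, in which any base may stand at N. It was found in 4 of the 67 member genes with a window (5.97%), Dnajb6, Hspd1, Hspe1 and Hsph1, and in 0.662% of all 27025 genes. A match is a description of the letters and not a measured binding site. Hspd1 and Hspe1 start head to head, and the whole stretch between their starts is shown on the Hspe1 strand, because a single run of overlapping matches lies between both genes. For Dnajb6 the 250 bases before the start are shown, with the match 46 bases before the start. In Hsph1 the match lay 16 bases after the start. Capitals mark the matches.
Hspe1, chr1:55087933-55088147, plus strand: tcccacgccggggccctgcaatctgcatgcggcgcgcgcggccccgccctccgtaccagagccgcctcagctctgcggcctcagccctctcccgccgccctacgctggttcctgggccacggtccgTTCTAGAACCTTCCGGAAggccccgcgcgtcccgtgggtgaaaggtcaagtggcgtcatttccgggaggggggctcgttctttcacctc
Dnajb6, chr5:29735648-29735897, plus strand: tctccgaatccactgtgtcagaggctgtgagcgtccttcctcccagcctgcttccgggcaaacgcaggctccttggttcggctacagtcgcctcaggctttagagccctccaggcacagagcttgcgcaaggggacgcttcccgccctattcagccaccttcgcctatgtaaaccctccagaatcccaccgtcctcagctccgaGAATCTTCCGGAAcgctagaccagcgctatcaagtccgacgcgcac

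The genes on either side of the shared stretch gave values on opposite sides of 0. Hspe1, which encodes the lid HSP10, read 11.29, 11.99, 12.91, 10.08 and 9.95 in High Exploration and 11.60, 10.88, 9.85, 10.62 and 6.63 in Low Exploration. High replicates 1, 4 and 5 lay within the Low Exploration range, Low replicate 5 stood far below the other arrays, and the difference was 1.33 ± 0.85 (limma adjusted p = 0.294). Hspd1, the ring protein HSP60, read 9.34, 9.26, 8.42, 9.83 and 10.11 in High Exploration and 9.46, 10.07, 9.78, 10.11 and 10.01 in Low Exploration. Its difference was −0.50 ± 0.37 (limma adjusted p = 0.361), and it was above 0 under median centring, under scaling to the hybridisation controls and with those controls as a covariate. Each standard error is for its own gene, and the difference between the genes was not tested.

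Dnajb6, a J-domain protein that keeps polyglutamine proteins from aggregating, read 13.34, 14.36, 13.65, 11.75 and 12.07 in High Exploration and 13.38, 11.18, 11.31, 11.00 and 10.93 in Low Exploration. High replicates 1 to 3 and Low replicate 1 lay between 13.34 and 14.36 and the other 6 arrays between 10.93 and 12.07. The difference was 1.47 ± 0.59 (limma adjusted p = 0.122). The 4 genes with a match had a median difference of 1.31 at their highest probe sets, 3 of them above 0, and ranged from −0.50 to 1.47. The 45 tested genes with a window and no match had a median of 0.22 and ranged from −1.83 to 1.70. Hspd1 and Hspe1 share their matches, and the second probe set of Hsph1 differed by −0.53. The difference between the medians was not tested. Dnajb1, the major cytosolic partner of inducible HSP70, differed by 0.51 ± 0.47 (limma adjusted p = 0.467), with High replicates 2 and 3 and Low replicates 1 and 3 as its lowest arrays.

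Chaperones of the endoplasmic reticulum gave 7 tested genes, 5 above 0 and 2 below, with 0 past the threshold and a median of 0.66, which no scaling or model turned but which was 0.27 without High replicate 3. Hspa5, the HSP70 of this compartment (BiP), was split by probe set. The highest, 1447824_x_at, read 13.08, 13.29, 13.29, 14.22 and 13.07 in High Exploration and 12.46, 14.12, 13.91, 14.50 and 14.71 in Low Exploration. High replicate 4 lay with Low replicates 2 to 5, and the difference was −0.55 ± 0.44 (limma adjusted p = 0.403). Probe set 1416064_a_at read 11.18, 11.91, 11.50, 8.96 and 9.70 in High Exploration and 10.72, 9.14, 9.25, 8.83 and 4.64 in Low Exploration. Low replicate 5 lay far below all others, and the difference was 2.14 ± 0.95, against −0.86 ± 0.35 for the third probe set, 1427464_s_at (limma adjusted p = 0.152 and 0.124).

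Hsp90b1, the HSP90 of the endoplasmic reticulum (GRP94), read 11.53, 12.61, 13.53, 10.89 and 11.15 in High Exploration and 13.34, 11.12, 10.44, 10.66 and 10.82 in Low Exploration. Only High replicate 3 read above Low replicate 1, while the other Low arrays lay at or below 11.12. The difference was 0.66 ± 0.62 (limma adjusted p = 0.476). Dnajc10, a reductase of disulfide bonds, read 11.62, 12.31, 11.36, 11.21 and 11.36 in High Exploration and 11.17, 10.79, 10.04, 10.90 and 10.03 in Low Exploration. Its groups did not overlap, High replicate 4 at 11.21 being next to Low replicate 1 at 11.17, and it differed by 0.98 ± 0.36 (limma adjusted p = 0.103). Dnajb9, a J-domain partner of BiP that the unfolded protein response induces, differed by 0.95 ± 0.47, and Hspa13 by 1.12 ± 0.46 at its highest probe set but −1.34 ± 0.51 at its second.

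The endoplasmic reticulum stress element, by which the unfolded protein response acts on promoters, was searched as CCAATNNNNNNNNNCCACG on both strands in the same windows. It was found in 3 of 67 member genes (4.48%), Dnajc3, Hspa5 and Hsp90b1, and in 0.137% of all genes. The 250 bases before the start of Hspa5 and of Hsp90b1 are shown with the matches in capitals, since these are the main chaperones of the compartment, and Hsp90b1 holds 2 of them.
Hspa5, chr2:34771840-34772089, plus strand: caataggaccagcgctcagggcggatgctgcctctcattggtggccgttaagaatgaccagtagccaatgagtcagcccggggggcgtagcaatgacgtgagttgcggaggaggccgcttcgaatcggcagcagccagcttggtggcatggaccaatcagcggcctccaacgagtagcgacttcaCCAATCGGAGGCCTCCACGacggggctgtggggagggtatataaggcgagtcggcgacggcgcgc
Hsp90b1, chr10:86705445-86705694, minus strand: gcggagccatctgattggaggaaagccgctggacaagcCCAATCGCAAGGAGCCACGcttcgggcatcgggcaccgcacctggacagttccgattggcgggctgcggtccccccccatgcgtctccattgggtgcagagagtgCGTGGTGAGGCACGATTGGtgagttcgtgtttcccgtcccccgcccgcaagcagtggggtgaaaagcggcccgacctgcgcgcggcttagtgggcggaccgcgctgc

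The 3 genes with this element differed by −0.55 (Hspa5), 0.66 (Hsp90b1) and 0.11 (Dnajc3, which restrains the kinase PERK) at their highest probe sets, so that they did not share a direction. Other genes of the unfolded protein response gave 13 tested genes, 9 above 0 and 4 below. Among them 0 passed, the groups of 3 did not overlap in the higher direction, beside 2.14% of all tested probe sets, and the median was 0.50 under the deposited scaling and above 0 in every alternative run. It was 0.22 without High replicate 3 and 0.86 without Low replicate 1. Canx, the lectin chaperone calnexin, read 13.07, 13.83, 14.31, 12.53 and 12.66 in High Exploration and 11.57, 11.76, 11.31, 12.17 and 11.67 in Low Exploration. It differed by 1.59 with groups that did not overlap (limma adjusted p = 0.0642). Atf4, a transcription factor of the response, differed by 1.18, also without overlap (limma adjusted p = 0.0798).

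Chaperones of mitochondria gave 8 tested genes, of which 5 were above 0, with a median of 0.51 that fell to −0.07 with the hybridisation controls as a covariate. Hspa9, the HSP70 of mitochondria (mortalin), had 4 tested probe sets. Probe set 1418503_at read 11.67, 12.14, 11.86, 11.22 and 11.02 in High Exploration and 10.89, 10.62, 9.56, 10.72 and 10.23 in Low Exploration. The groups did not overlap, and the difference was 1.18 ± 0.37 (limma adjusted p = 0.0780). The probe set with the highest signal, 1418504_at, read 11.20, 11.64, 12.16, 10.55 and 10.54 in High Exploration and 11.56, 11.19, 12.16, 11.44 and 10.96 in Low Exploration. Its highest arrays were replicate 3 of each group, and its difference was −0.25 ± 0.40. Dnajc15, a J-domain protein of the inner membrane, read 11.18, 11.84, 12.55, 11.77 and 11.22 in High Exploration and 11.09, 11.00, 10.97, 10.85 and 10.30 in Low Exploration. It did not overlap and differed by 0.87 ± 0.35 (limma adjusted p = 0.124), with High replicate 1 at 11.18 and Low replicate 1 at 11.09.

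The Dnaja family, cytosolic and mitochondrial J-domain proteins of the bacterial DnaJ type, read higher in High Exploration at 6 of 7 tested probe sets. Its median was 0.94, and −0.04 with the hybridisation controls as a covariate. Dnaja1 was higher at all 3 of its tested probe sets, by 0.85 to 1.43. Probe set 1460179_at read 14.52, 14.47, 13.57, 13.85 and 13.65 in High Exploration and 13.48, 12.76, 12.17, 12.93 and 11.54 in Low Exploration. The groups did not overlap, with High replicate 3 at 13.57 and Low replicate 1 at 13.48, and the difference was 1.43 ± 0.41, a ratio of 2.70 (limma adjusted p = 0.0690). The highest probe set, 1459835_s_at, differed by 0.96 ± 0.34 (limma adjusted p = 0.0941). Dnaja2 differed by 1.49 ± 0.49 (limma adjusted p = 0.0864), Dnaja3, which is mitochondrial, by 0.94 ± 0.56, and Dnaja4 by −1.20 ± 0.52.

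The Dnajb family lay mostly above 0 among its tested probe sets, and the Dnajc family spread around 0. Of 11 tested Dnajb probe sets 8 were above 0, with a median of 0.29 that no scaling or model turned but that was 0.11 without Low replicate 3, while 7 of the 13 genes lay wholly below the filter. Of 37 tested Dnajc probe sets 16 were above 0 and 21 below. Their median of −0.10 was above 0 under quantile normalization, cyclic loess, median centring and scaling to the hybridisation controls, and without High replicate 4 or Low replicate 1. Dnajc2, which sits on the ribosome with Hspa14, differed by 1.28 ± 0.44 at its highest probe set, and Hspa14 differed by 1.70 ± 0.68 (limma adjusted p = 0.0914 and 0.120). Dnajc17, the member of this family with the highest signal, read 10.87, 10.76, 11.28, 13.10 and 10.94 in High Exploration and 11.13, 13.72, 12.08, 12.77 and 13.37 in Low Exploration. High replicate 4 lay with 4 of the Low Exploration arrays and Low replicate 1 with 4 of the High, and the difference was −1.22 ± 0.57 (limma adjusted p = 0.164).

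Members that act at vesicles and synapses showed no common direction. Of 5 tested genes 3 were above 0, with a median of 0.19 that was below 0 under cyclic loess and with the hybridisation controls as a covariate. Dnajc5, the cysteine string protein of synaptic vesicles, read 11.58, 12.74, 12.84, 11.31 and 11.14 in High Exploration and 11.61, 10.82, 10.26, 11.09 and 10.70 in Low Exploration. High replicates 2 and 3 read 12.74 and 12.84 and the other arrays 11.61 or less, and the difference was 1.03 ± 0.43 (limma adjusted p = 0.133). Its other tested probe sets differed by −0.39 and −0.10, and the mean of all 5 by −0.36. Dnajc6, the auxilin that recruits HSP70 to clathrin-coated vesicles, read 11.73 to 13.06 in High and 10.55 to 11.96 in Low Exploration, so that the groups overlapped. It differed by 0.94 ± 0.39, but its second tested probe set, 1438896_at, differed by −1.82 ± 0.63 (limma adjusted p = 0.133 and 0.0943). Dnajc13, an endosomal J-domain protein, differed by −1.02 ± 0.44.

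The small heat shock proteins were the only family in which no tested probe set was above 0. The 4 tested had a median of −0.52, below that of all probe sets, which was 0.02 to 0.09 under median centring and scaling to the hybridisation controls. Hspb1 (HSP27), which heat shock induces, read 8.75, 8.55, 8.29, 9.08 and 8.11 in High Exploration and 8.41, 8.36, 9.30, 10.00 and 9.13 in Low Exploration. Its difference was −0.48 ± 0.39 (limma adjusted p = 0.398). Hspb8, which works with Bag3 in the clearance of misfolded proteins, read 8.65, 6.75, 7.47, 8.81 and 8.11 in High Exploration and 7.61, 9.24, 8.95, 7.18 and 9.58 in Low Exploration, and the groups overlapped over most of their range. It differed by −0.55 ± 0.54, and Hspb7 by −1.83 ± 0.82. Hspb2, Hspb3 and Hspb9 lay below the filter. Of the genes set apart as not chaperones of these families, Hspb11, a component of intraflagellar transport, differed by 1.50 ± 0.47 (limma adjusted p = 0.0780). Hspbap1 differed by −1.45 ± 0.83 and Hspbp1 by 0.11 ± 0.71.

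Probe sets of the same gene often lay on opposite sides of 0. Of the 33 genes with at least 2 tested probe sets, 11 had all of them above 0, 4 all below and 18 some on each side. The widest span was that of Dnajc21, a factor of ribosome assembly, from −1.36 to 1.87. Cct2, Dnaja1, Dnaja2, Dnajb6, Dnajb14, Dnajc10, Dnajc14, Hspa8, Hspe1, Hsp90b1 and Cct6a had all tested probe sets above 0. Among the 52 genes with several probe sets of any signal, the one with the highest mean signal was above 0 in 34, with a median of 0.44, and of the other 119 probe sets 47 were above 0, with a median of −0.19. By kind, 14 of 19 probe sets marked a_at and 9 of 12 marked s_at, which match several transcripts, were above 0, and 38 of 69 plain probe sets and 7 of 13 marked x_at, which can cross-hybridise.

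**Figure D3:**
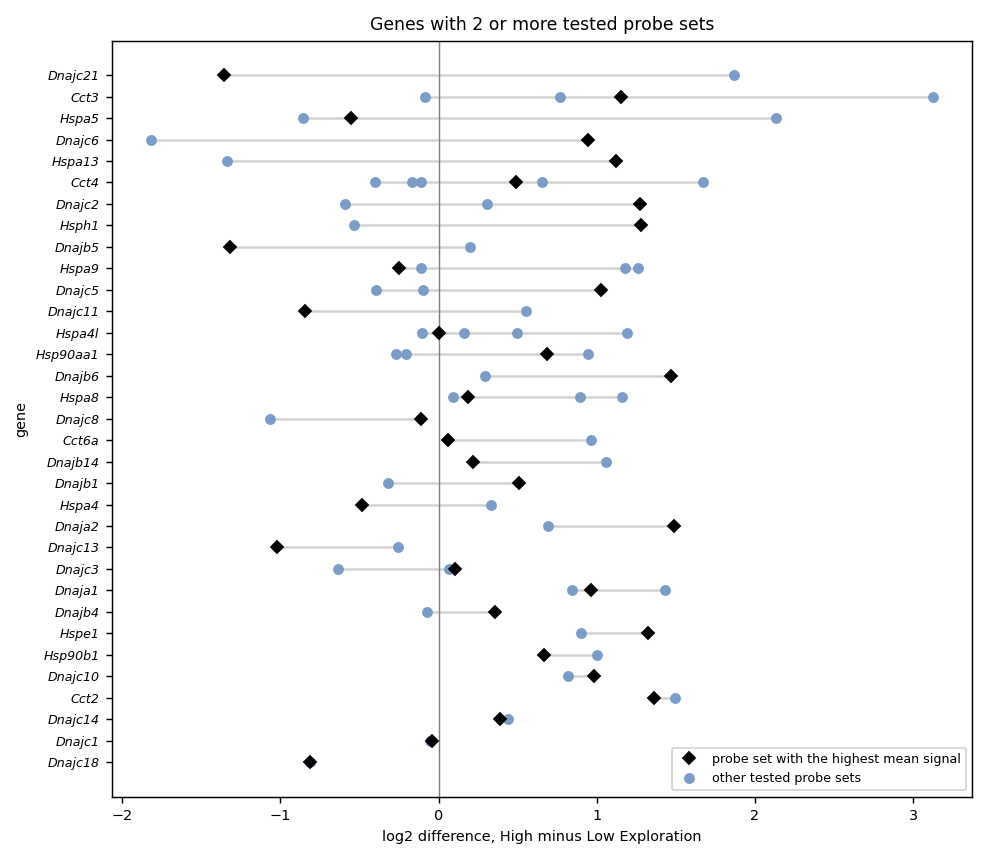
Log2 difference (High minus Low Exploration, x axis) of every tested probe set of the 33 genes with 2 or more (y axis, ordered by span), with black diamonds for the brightest probe set and blue points for the others. In 18 genes the points lie on both sides of 0, with the widest span in Dnajc21, Cct3 and Hspa5.

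The arrays did not contribute equally to these values. Among the 113 tested members, High replicate 2 was the highest of the 10 arrays in 30 and High replicate 3 in 23 (26.5% and 20.4%, beside 8.77% and 11.3% of all tested probe sets). Low replicate 3 was the lowest array in 28 and Low replicate 5 in 20 (24.8% and 17.7%, beside 10.3% and 10.7%). Low replicate 1 was the highest of its group in 45 members (39.8%, beside 27.7%), including 5 of 6 HSP90 probe sets. Without it the groups of 20 members did not overlap in the higher direction (5.4% of all tested probe sets) and those of 4 in the lower (9.1%), and without High replicate 3 those of 3 in the lower (8.67%). The median of HSP70 was 0.20 without High replicate 2 and 0.68 without High replicate 5, and that of HSP90 was 0.42 without High replicate 3 and 1.03 without Low replicate 1. That of HSP60 with HSP10 was 0.51 without Low replicate 5, that of the mitochondrial list 0.24 without Low replicate 3 and that of the vesicle list 0.05 without High replicate 3. The medians of the Cct, Dnaja and small heat shock protein families and of the heat shock factor 1 list moved less, to between 0.59 and 0.96, 0.79 and 1.06, −0.71 and −0.39, and 0.65 and 0.93.

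Levels per array were compared for TRiC and for the members as a whole. The median of the 7 TRiC subunits among the members, without Tcp1, was 12.26, 12.39, 12.63, 12.13 and 12.78 in High Exploration and 11.51, 12.11, 11.22, 12.12 and 10.40 in Low Exploration. This leaves 0.01 between High replicate 4 and Low replicate 4. On High replicate 4 this median was the value of Cct6a and on Low replicate 4 that of Cct2, so different subunits were compared. Tcp1, left out here, read 10.19 on High replicate 4 and 10.51 on Low replicate 4. The median of all tested members was 9.62 to 9.86 and 9.45 to 9.76, and these ranges overlapped. Low replicate 5 had the lowest TRiC median and the highest level of the hybridisation and the poly-A controls, and High replicate 2 the lowest level of both controls. The median SD within groups was 0.76 in High and 0.72 in Low Exploration for the members, beside 0.69 and 0.64 for all tested probe sets.

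**Figure D4:**
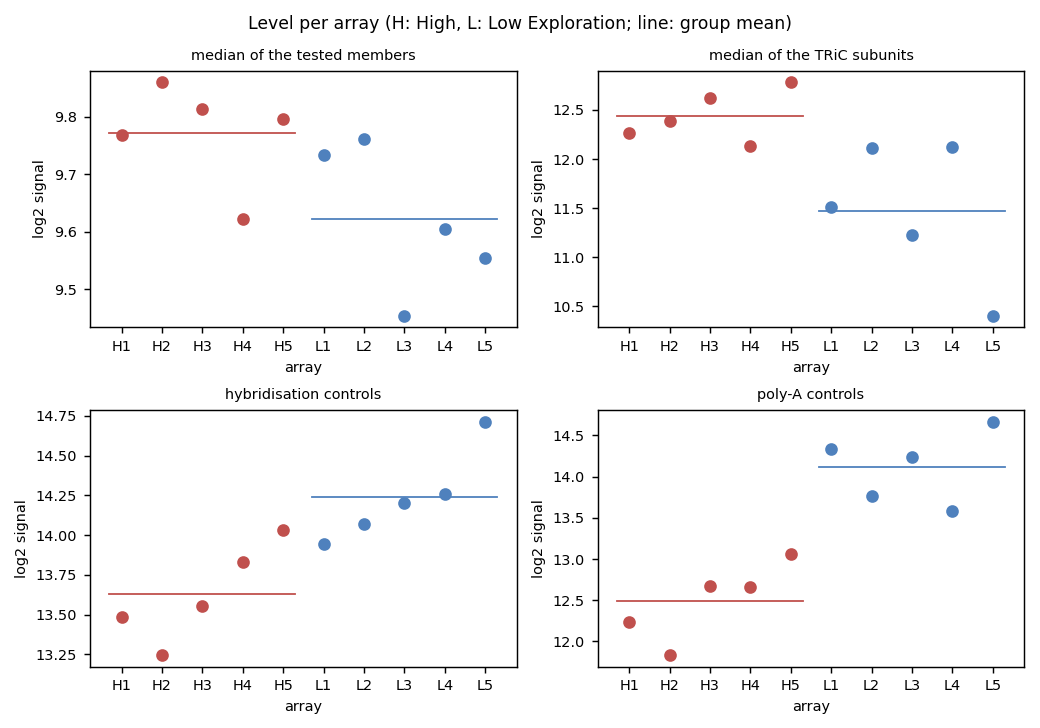
Log2 signal per array (y axis) for the 5 High Exploration (H1 to H5, red) and 5 Low Exploration arrays (L1 to L5, blue, x axis), with lines for group means. Panels show the median of the tested members, the median of 7 TRiC subunits without Tcp1, the hybridisation controls and the poly-A controls. The TRiC medians are 12.13 to 12.78 in High and 10.40 to 12.12 in Low Exploration, so that they nearly touch at replicate 4 of each group. The poly-A controls are separated in the opposite direction.

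Markers of cell types in the hippocampus also moved with the groups in part. The summed signal of 6 astrocyte markers was 15.59 to 16.13 on the log2 scale in High and 14.41 to 15.24 in Low Exploration, with 4 of 5 tested genes above 0. Gja1, the largest term of that sum, was the only astrocyte marker without overlap. The sum of 10 markers of hippocampal neurons was 14.95 to 15.42 and 14.47 to 14.82, with 5 of 8 above 0. Of these markers Calb1 alone did not overlap, at means of 13.64 and 12.13, while Camk2a, the largest term, differed by −0.01. The sum of 3 red blood cell genes was 7.61 to 8.48 and 9.11 to 10.07, with its 1 tested gene below 0. The sums of 7 choroid plexus, 6 oligodendrocyte, 7 microglia, 6 endothelial and 7 other-region markers overlapped. No marker was at 0. In bulk tissue fewer cells of a type and less RNA per cell cannot be told apart, and the part of these markers in the chaperone values was not tested.

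The scaling of the arrays set the size of the family medians and the number of calls. Relative to the deposited values, quantile normalization moved the median of all tested probe sets from −0.31 to −0.01, cyclic loess to −0.02, median centring to 0.23 and scaling to the hybridisation controls to 0.30. The median of the members lay 0.62 above that of all probe sets as deposited, 0.43 above it under quantile normalization, 0.42 above it under cyclic loess and 0.08 above it with the hybridisation controls as a covariate. Groups did not overlap in the higher direction in 4 members under quantile normalization (2.76% of all), 3 under cyclic loess (2.6%), 16 under median centring (6.97%) and 11 under scaling to the hybridisation controls (5.87%). Cct2 (1433534_a_at) and Cct3 (1459987_s_at) were among them in each of these 4.

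Calls at the limma threshold followed the setting. Under median centring 10 of 113 members passed, all higher in High Exploration, beside 4.02% of all tested probe sets (830 higher and 76 lower). With array weights 10 passed, all higher, beside 9.71% of all (612 higher and 1574 lower). Probe sets of Cct2, Cct3, Cct4, Dnaja1, Hspa9 and Hspb11 were in both sets. With a pseudocount of 23.0 added to the signal 1 member passed, Cct3 (1459987_s_at), beside 1.51% of all (41 higher and 300 lower). Without High replicate 5 the same probe set passed alone among the members, beside 5.4% (221 higher and 996 lower).

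**Figure D5:**
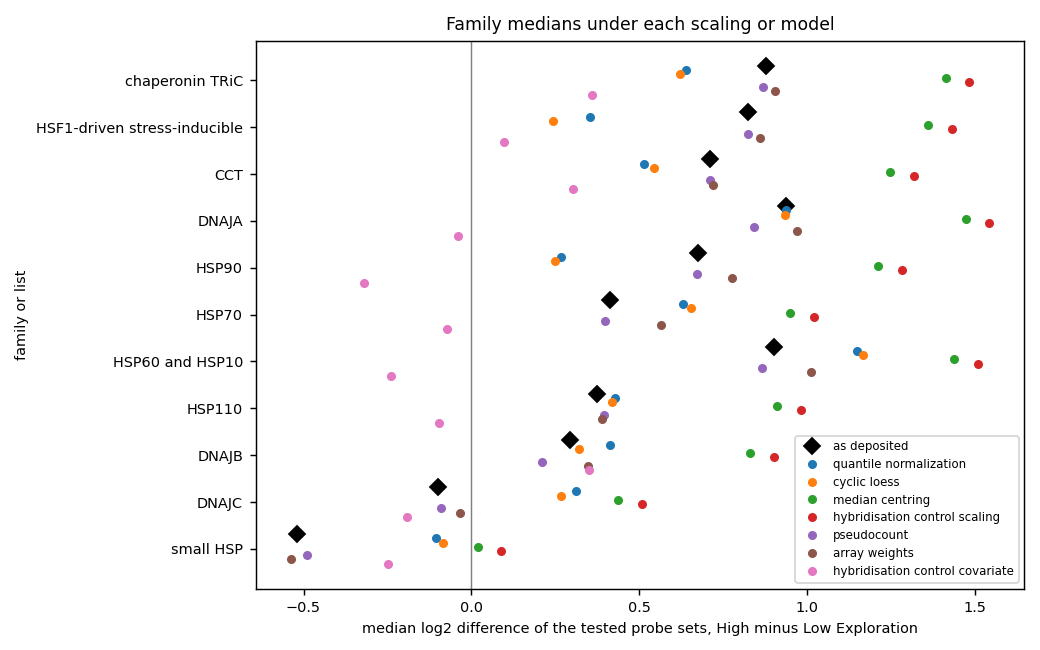
Median log2 difference (High minus Low Exploration, x axis) of the tested probe sets of each family or list (y axis), with black diamonds for the deposited scaling and coloured points for the other scalings and models. TRiC, the heat shock factor 1 list, the Cct family and Dnajb stay above 0 throughout, Dnaja, HSP90, HSP70, HSP60 with HSP10 and HSP110 fall below 0 with the hybridisation controls as a covariate, and Dnajc and small heat shock proteins lie on either side of 0.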

How the data were processed

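Hippocampal RNA of 10 mice, 5 in each group by sample title, was measured on Affymetrix arrays. The authors computed the deposited signals, which are linear intensity values from MAS 5.0, 1 per probe set and array, with each array scaled to a trimmed mean of 500. Per the labels the standard protocol was used, whereas the methods name a double-round amplification, and which was applied is not settled. The design text deposited with the series describes another experiment, and groups and tissue follow the sample labels. Log2 of the intensity was tested in R 4.3.3 with limma 3.58.1 (lmFit and eBayes, Benjamini-Hochberg adjustment, threshold 0.05) on the 22518 of 45037 probe sets above the median of mean signal. Of the 45037 probe sets, 34958 had 1 symbol in the platform annotation. Array measures were compared with an exact permutation test of the difference in means over all 252 assignments of the arrays to the groups. Fits were tested on simulated data. Alternatives were no filter, quantile normalization, cyclic loess, median centring, scaling to the hybridisation controls or those as a covariate, a pseudocount, array weights, 1 value per gene and leaving out each array. Members, lists and tests were chosen with earlier results of these data known. The text names, of the members, the 5 probe sets with the smallest p among those that did not overlap in each direction, the gene with the highest signal of each family and a list of 28 genes, of which 27 were in the annotation used here, and of each partner list the 2 genes with the smallest p. Other genes were named after their values were seen. Promoter sequences are those of RefSeq (GRCm38.p6), with 67 of 81 genes matched.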

Additional observations from a re-analysis of the deposited data

Results flagged for a closer look

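Single arrays stood apart from the other 4 of their group in 7 of the 64 groups of 5 values examined by a Dixon test of the gap to the nearest array, a test that picks out about 1 in 20 groups by chance. Of these, 5 concerned Low replicate 1. It read 17.02 in Hspa8 (1455789_x_at; the others 15.93 to 16.21), 13.34 in Hsp90b1 (1438040_a_at; 10.44 to 11.12), 13.38 in Dnajb6 (1448234_at; 10.93 to 11.31) and 13.79 in Cct3 (1448178_a_at; 12.74 to 12.96), in each of them above its group, and 10.66 in Hspa4 (1435194_at; 13.08 to 13.81), below its group. High replicate 4 read 13.10 in Dnajc17 (1446928_at; the others 10.76 to 11.28) and 14.22 in Hspa5 (1447824_x_at; 13.07 to 13.29), above its group in both.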

How the results depend on the processing

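With 5 arrays a group, signal over background and array scaling limit the calls. Members past the limma threshold numbered 10 under median centring, 10 with array weights, 1 with the pseudocount and 0 to 1 with 1 array left out. The shares of all tested probe sets, both directions counted, were 4.02%, 9.71% and 1.51%, and 5.4% without High replicate 5. Members without overlap in the higher direction numbered 4 under quantile normalization (2.76% of all tested probe sets) and 3 under cyclic loess (2.6%). They numbered 16 under median centring (6.97%) and 11 under scaling to the hybridisation controls (5.87%). With the highest probe set of each gene they numbered 3 of 60 (5%), beside 2.14% of all tested probe sets. With 1 array left out they numbered 7 to 20, beside 503 to 1217 of all 22518 tested probe sets. In the lower direction members without overlap numbered 1 without the filter (4.84% of all probe sets). With 1 array left out they numbered 0 to 4 in that direction, beside 1617 to 2512 of all 22518 tested probe sets. The median difference was −0.11 without the filter, 0.85 under median centring, 0.92 under scaling to the hybridisation controls, −0.0397 with those as a covariate and 0.18 to 0.37 with 1 array left out. Relative to all probe sets it was 0.36 without the filter, 0.43 under quantile normalization, 0.42 under cyclic loess, 0.0810 with the covariate and 0.44 to 0.71 with 1 array left out. For the 31 named probe sets that were tested, 532 of 581 alternatives kept the direction and the side of the threshold, 14 passed it and 35 turned the direction. The cause was not tested. The latter were, with the covariate, Hspe1 (−1.51), Hspa8 (−0.0947), Hsp90b1 (−0.70), Hspa4 (0.90), Hspa5 (0.22), Hspb8 (0.49), Hspd1 (0.0675), Dnaja2 (−0.0397), Dnajb6 (−0.22), Dnajc6 (−0.0530), Cct5 (−0.50) and Cct7 (−0.23). Under scaling to the hybridisation controls they were Hspb1 (0.12), Hspa4 (0.13), Hspa5 (0.0548), Hspa9, 1418504_at (0.36), Hspb8 (0.0545) and Hspd1 (0.11). Under median centring they were Hspb1 (0.0522), Hspa4 (0.0551), Hspa9, 1418504_at (0.29) and Hspd1 (0.0406). With the mean over all probe sets of a gene they were Hspa1b (−0.36), Hspa5 (0.24), Hspa9 (0.24), Dnajc5 (−0.36) and Dnajc6 (−0.96). Under quantile normalization and cyclic loess they were Cct4, 1438560_x_at (−0.0356 and −0.0961), and Cct6a (−0.41 and −0.38), and under cyclic loess also Hspa8 (−0.50). Cct6a was −0.0492 with array weights, and −0.24 to 0.28 with 1 array left out, below 0 without High replicate 5 (−0.24) or Low replicate 1 (−0.17). No paired analysis was possible because the replicate numbers only name the arrays.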
